A study of Homo sapiens with 8 samples.

Results

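A set of 2944 promoter peaks was recovered from U-2 OS, a cell line from a human osteosarcoma, with both of 2 antibodies against the transcription factor Sp1 and carried no peak found in both replicates of the insulator protein CTCF. They were selected on the deposited peak calls of chromatin immunoprecipitation followed by sequencing (ChIP-seq), in which protein is crosslinked to DNA and pulled down with an antibody. Of 8706 antibody 1 peaks, 8602 lay on chromosomes 1 to 22 and X, and 4222 of these shared at least 1 bp with an antibody 2 peak. In 3755 the summit, the position of highest enrichment, lay within 1 kb of a transcript start in GENCODE release 44. Removing those that overlapped a CTCF peak found in both CTCF replicates left the 2944 members, 33.8% of the antibody 1 list and 78.4% (95% Wilson interval 77.1 to 79.7%) of the shared promoter peaks.

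The series comprised 8 libraries, of which 5 have a peak list used here. Both Sp1 antibodies (MA5-32497 and PA5-29165, 1 library each) and normal rabbit IgG (1 library) were applied to cells with a V5-Halo tag knocked into the endogenous SP1 gene, although the sample titles call the line parental. CTCF (antibody ab128873, 2 replicates) was pulled down from a single clone, C32, with a FLAG-Halo tag knocked into the endogenous CTCF gene, whereas the text describing the series calls those cells wild type. All cells were crosslinked with 1% formaldehyde for 6 min, and the labels name no other treatment. Because Sp1 and CTCF came from different lines and sequencing platforms, the target cannot be told apart from the experiment. The lists hold no expression values, so the labelled cell line could not be checked by its markers. With 1 library per Sp1 antibody there is no replicate of either pull-down, and no value below has a replicate error. Intervals on shares are 95% Wilson intervals and cover counting error only.

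Sp1 is a ubiquitous activator whose zinc fingers recognise the GC box, a short G-rich element common in promoters within CpG islands. Such promoters often lack a TATA box and serve genes that most cells express. CTCF recognises a longer sequence, organises chromatin loops and insulates neighbouring regulatory regions. Other proteins that bind near the starts of broadly expressed genes include the trimeric factor NF-Y, the ETS family, NRF1, YY1 and BANP, a protein that binds CGCG-containing elements.

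The sequence under some of the strongest members is shown first, in windows that hold the element that Sp1 is known for, which the rule did not use. Not all of the strongest members held it, since DMAP1 and VPS51, described below, had no GC box in the window. The box is also common near starts, and 45.5% of all canonical protein-coding starts held it within the 100 bp upstream. Each line gives the antibody 1 summit with 50 bp to each side, in hg38, read on the coding strand of the nearest start, with the GC box GGGCGG or its reverse complement in capitals. Neighbouring matches can share a base, so a run of capitals may hold several.

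RAD51AP2 (chr2:17518471-17518571, minus strand): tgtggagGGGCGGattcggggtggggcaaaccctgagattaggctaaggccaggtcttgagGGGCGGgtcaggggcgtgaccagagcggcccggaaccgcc
STAP2 (chr19:4328524-4328624, minus strand): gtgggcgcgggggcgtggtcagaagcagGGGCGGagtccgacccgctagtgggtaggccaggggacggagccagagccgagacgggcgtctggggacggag
GRTP1 (chr13:113364295-113364395, minus strand): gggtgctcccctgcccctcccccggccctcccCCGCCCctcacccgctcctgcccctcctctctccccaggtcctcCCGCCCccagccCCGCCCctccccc

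These lie near the starts of RAD51AP2, which encodes a protein of the recombination machinery, of STAP2, an adaptor protein of cell signalling, and of GRTP1, a TBC-domain protein. They held 2, 1 and 3 GC boxes. Of the members with the most GC boxes, 3 are shown next, since they carry the box in tandem arrays.

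CAPN12 (chr19:38735743-38735843, minus strand): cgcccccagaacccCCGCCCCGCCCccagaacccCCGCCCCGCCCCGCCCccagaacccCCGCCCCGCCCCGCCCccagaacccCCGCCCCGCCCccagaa
CPNE7 (chr16:89587133-89587233, plus strand): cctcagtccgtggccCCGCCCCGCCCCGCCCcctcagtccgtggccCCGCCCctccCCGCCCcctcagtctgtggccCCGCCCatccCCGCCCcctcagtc
RAD54L (chr1:46247471-46247571, plus strand): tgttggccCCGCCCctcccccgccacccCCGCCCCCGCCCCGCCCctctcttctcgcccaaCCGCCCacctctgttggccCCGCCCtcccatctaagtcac

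The CAPN12 window had 10 matches, CPNE7 and TRAPPC8 had 7 each and RAD54L, the strongest of those with 6 by mean enrichment, had 6. In each of the 3 windows shown all matches read CCGCCC on the coding strand. CAPN12 encodes a calpain protease, CPNE7 a calcium-dependent membrane-binding protein, TRAPPC8 a subunit of a vesicle tethering complex and RAD54L an ATPase of homologous recombination.

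A different element lay under some of the members that leaned towards antibody 1, 38 of the 94 in which that antibody was more than 4-fold higher. The following 30 bases surround the word TCGCGAGA, the core recognised by BANP, in 3 of the 4 members with the lowest ratio of antibody 2 to antibody 1 among those that hold it.

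CDK12 (chr17:39461322-39461351, plus strand): ccgggagctcaTCGCGAGActcaggtgaaa
ARF3 (chr12:48957554-48957583, minus strand): ggtgatgggTCTCGCGAGAactgccgctag
CDC5L (chr6:44387499-44387528, plus strand): ccgccgctaTCTCGCGAGAgccgtagtttc

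In ARF3 and CDC5L the word and its reverse complement overlapped in the palindrome TCTCGCGAGA, which counts as 2 matches. Of the 202 members more than 4-fold higher with antibody 2, 100 held CCGGAA, the core of ETS sites, shown here in 30 bases for 3 of the 4 highest ratios among members that hold it.

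VTI1A (chr10:112446971-112447000, plus strand): tcaaacctccctCCGGAAgcaagctgctgt
AAR2 (chr20:36236451-36236480, plus strand): aagctggagaacTTCCGGtgcgtttccgct
TOP3B (chr22:21982881-21982910, minus strand): cctggggtgctcCCGGAAtccgcgagccac

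Some windows combined elements. In GUCD1, which encodes a guanylyl cyclase domain protein, the capitals mark 2 GC boxes and the NF-Y word CCAAT in its reverse complement. The window also holds the ETS word in its reverse complement, left in lower case. GUCD1 had fold enrichments of 24.7 with antibody 1 and 56.8 with antibody 2.

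GUCD1 (chr22:24555301-24555401, minus strand): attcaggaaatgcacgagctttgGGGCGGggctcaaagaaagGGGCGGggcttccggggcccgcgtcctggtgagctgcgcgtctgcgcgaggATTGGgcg

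Fold enrichment, the signal of a peak over its control as deposited, entered the rule through the peak calls and is therefore given as a description. With antibody 1 the 2944 members had a median fold enrichment of 10.5 (quartiles 7.27 and 15.95, range 2.298 to 392). The antibody 2 peaks with the largest overlap had a median of 6.93 (5.41 and 9.99, range 2.43 to 289), and they numbered 2938 distinct peaks. The median log2 ratio of antibody 2 to antibody 1 was −0.66, and 2250 members (76.4%) were higher with antibody 1. Members were thus more enriched with antibody 1 in most cases, but the libraries differ in antibody and possibly in depth, which the lists do not give.

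Agreement in strength between the antibodies was weak across members. Spearman's rho of the fold enrichments was 0.339 and Pearson's r of their log2 values was 0.195 over 2944 members, which share the same pair of libraries. At 94 members (3.19%) antibody 1 was more than 4-fold higher, and at 202 (6.86%) antibody 2 was. The 811 shared promoter peaks with CTCF had a rho of 0.340, while the 316 shared peaks away from promoters and without CTCF had 0.703.

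**Figure D1:**
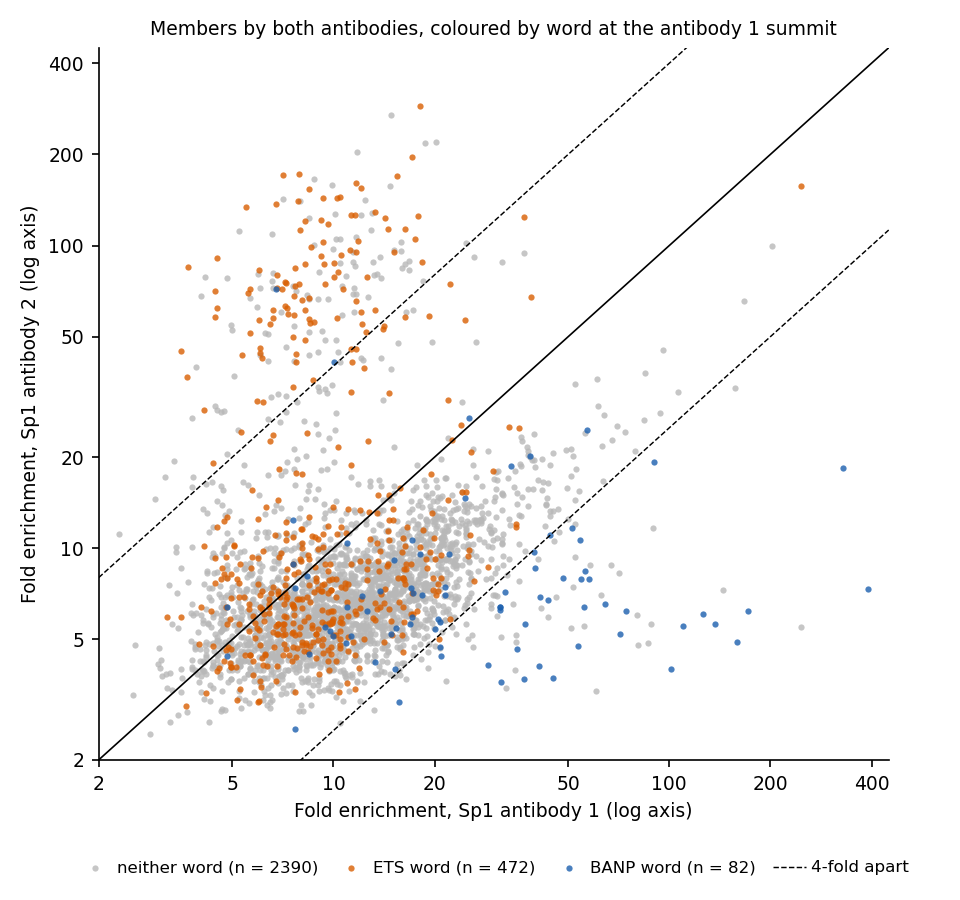
Fold enrichment of the 2944 members with Sp1 antibody 1 (horizontal, log axis) and antibody 2 (vertical, log axis), 1 point per member, coloured by whether the BANP or ETS word lies within 50 bp of the antibody 1 summit, members with both words being drawn as BANP; the solid line marks equal values and the dashed lines 4-fold differences. The 94 members below the lower dashed line include 38 with the BANP word, and the 202 above the upper line include 100 with the ETS word.

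The members with the highest mean log2 fold enrichment overlapped no IgG peak. RAD51AP2 (chr2:17517992-17518944) was enriched 247-fold with antibody 1 and 157-fold with antibody 2, with the summits 2 bp apart in sequence annotated as upstream or intergenic. STAP2 (chr19:4327347-4329020), with its summit in an intron, had 202 and 99.7. GRTP1 (chr13:113364108-113364665), upstream of the start, had 167 and 65.5, and its summits coincided. These 3 were high with both antibodies.

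Others of the strongest members differed more between the antibodies. ERCC6L2 (chr9:95875102-95876233), a helicase of DNA repair, had 330 with antibody 1 but 18.4 with antibody 2, its summits lay 397 bp apart, and the antibody 1 window held TCGCGAGA. At the shared promoter of IQCH and AAGAB (chr15:67254232-67255269) the values were 157 and 33.9. DMAP1 (chr1:44213218-44213832), a subunit of the TIP60 acetyltransferase complex, showed the reverse, with 18.1 and 289. MLEC (chr12:120686277-120687236), a lectin of the endoplasmic reticulum, had 36.9 and 124, and VPS51 (chr11:65095840-65096811), a subunit of vesicle tethering complexes, had 20.3 and 219. DMAP1 and MLEC also overlapped a CTCF peak of replicate 1 alone, with fold enrichments of 5.09 and 3.89, and VPS51 a peak of replicate 2 alone, with 5.01.

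The most unequal members were named by the ratio itself. CDK12, a kinase of RNA polymerase II, had 392 with antibody 1, the highest value of all members, and 7.36 with antibody 2 (chr17:39460712-39462297). FAM200B had 246 and 5.50 (chr4:15681182-15682268), and ARF3, a small GTPase of the Golgi, 159 and 4.91 (chr12:48957020-48958118). Of these, FAM200B held no TCGCGAGA in its window. At the other end lay VTI1A, a SNARE of vesicle fusion, with 5.49 and 134 (chr10:112446830-112447246), IGHMBP2, a helicase, with 7.09 and 170, AAR2, an assembly factor of the splicing machinery, with 3.68 and 84.7 (chr20:36236216-36236509), and TOP3B, a topoisomerase, with 7.89 and 173 (chr22:21982629-21983031). All 4 held CCGGAA and none held a GC box in the window, and VTI1A also overlapped a CTCF peak of replicate 1 alone (4.47).

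Members lay close to the start and mostly upstream of it. The antibody 1 summit had a median position of −40 bp from the nearest start, negative being upstream (quartiles −100 and −2 bp), and the antibody 2 summit one of −59 bp. Although the rule allowed 1 kb, 46.03% (44.2 to 47.8%) of antibody 1 summits lay within 50 bp of a start, 68.6% within 100 bp and 97.6% within 500 bp. Upstream positions made up 76.3% (74.8 to 77.8%) of antibody 1 summits and 71.4% of antibody 2 summits. The summits of the antibodies lay a median of 57 bp apart, and 68.5% (66.8 to 70.1%) lay within 100 bp of each other. Median peak widths were 642.5 bp with antibody 1 and 532 bp with antibody 2.

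At the limit of 1 kb, the outermost members were in an intron of ZNF846 (995 bp from the start, fold enrichments 21.2 and 11.0), in an intron of COMTD1 (991 bp, 17.9 and 6.51) and in an intron of a long non-coding RNA gene (986 bp, 9.15 and 6.27). Just outside it were peaks at ZSCAN10 (1003 bp, 11.5 and 5.72), TMEM216 (1008 bp, 3.67 and 2.74) and a long non-coding RNA gene (1008 bp, 7.26 and 4.99).

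By annotation, 1118 member summits (37.98%) were upstream of or between genes, 773 (26.3%) in an intron, 670 (22.8%) in an untranslated exon, 336 (11.4%) in an exon of a non-coding transcript and 47 (1.60%) in a coding exon. The nearest start belonged to a protein-coding gene for 2440 members (82.9%) and to a long non-coding RNA for 428 (14.5%). Of these 428, 245 (57.2%, 52.5 to 61.8%) also had a protein-coding start within 1 kb, and 2709 of all members (92.0%) had one. Median fold enrichment was alike in both classes, at 10.8 and 7.02 for protein-coding starts and 9.66 and 6.54 for long non-coding RNA starts.

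A smaller group lay at genes of small RNAs. The nearest start was that of a small nuclear RNA, a component of the splicing machinery, for 23 members, with median fold enrichments of 6.59 and 6.18. Of these, 12 lay at U2 genes on chromosome 17, with values from 3.26 to 17.4 with antibody 1 and from 3.87 to 10.2 with antibody 2. The U2 genes there are near-identical copies. The central 41 bases of all 12 windows recurred in another member, as did those of 63 members in all, so the share of reads that belongs to each copy is uncertain. RNU6ATAC, a small nuclear RNA of the minor spliceosome, had 6.59 and 23.7.

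Sequence was compared over 50 bp to each side of the summit, on both strands. A GC box was found in 1753 members (59.5%, 57.8 to 61.3%), compared with 14.6% (13.3 to 15.9%) of windows 500 bp upstream and 19.4% (18.01 to 20.9%) of those 500 bp downstream. At antibody 2 summits the share was 48.4% (46.6 to 50.2%), and within 50 bp of either summit it was 69.0%. All canonical protein-coding starts, read from 100 bp upstream to the start, had a GC box in 45.5% (44.8 to 46.2%). Members and canonical starts had the same median GC content, 66.3%, against 53.5% and 59.4% in the windows upstream and downstream of members. Peaks are not independent replicates, so these shares were not tested against each other.

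The share in members was close to that of the 811 shared promoter peaks with CTCF, which was 59.4% (56.0 to 62.8%). It was 52.5% (50.6 to 54.3%) in the 2835 promoter peaks of antibody 1 alone and 20.7% (17.6 to 24.2%) in the 576 of antibody 2 alone, both without CTCF. The last share was read at antibody 2 summits, where members had 48.4%. The longer form GGGGCGGGG, which contains the GC box, was found in 21.3% of members and 16.7% of canonical starts. The CACCC box CCACACCC, a related element of the Sp and KLF family, was found in 1.26% and 1.41%.

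Elements of other factors were found in members as well. The NF-Y word CCAAT occurred in 27.99% (26.4 to 29.6%) of members, 20.7% (20.1 to 21.3%) of canonical starts and 20.8% (18.2 to 23.8%) of the shared promoter peaks with CTCF. The ETS word CCGGAA occurred in 16.6% (15.3 to 17.998%) of members and 12.4% (11.96 to 12.9%) of canonical starts, and the BANP word TCGCGAGA in 2.79% (2.25 to 3.44%) and 1.03% (0.896 to 1.18%). The YY1 word AAGATGGC was found in 2.04% (1.59 to 2.61%) of members and 0.501% (0.412 to 0.609%) of canonical starts. Canonical windows end at the start, whereas member windows follow the summit and can reach past the start or stop short of it. In members 52.4% of YY1, 70.9% of ETS and 73.8% of BANP matches lay upstream of the start. Shares of members and canonical starts are thus not measured in the same way. In contrast, the TATA box word TATAAA was found in 1.12% (0.799 to 1.57%) of members and 5.77% (5.45 to 6.101%) of canonical starts. The shared promoter peaks with CTCF held the ETS word in 16.3%, BANP in 3.58%, YY1 in 2.096% and the TATA box in 1.60%. The intervals of these shares overlapped those of members, so these words did not set members apart from that group.

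Several words occurred in members as a whole about as often as in canonical starts. These were NRF1 GCGCATGC (2.41% and 2.43%), CRE TGACGTCA (1.73% and 1.86%), the E-box CACGTG (4.31% and 4.28%), C/EBP TTGCNCAA (0.611% and 0.616%) and ZNF143 ACTACAATT (0.170% and 0.165%). AP-1 TGANTCA was found in 1.09% and 1.97%, and E2F TTCCCGCC, whose reverse complement shares GGCGG with the GC box, in 2.45% and 1.72%. The CTCF core occurred in 3 members (0.102%) and in 7 of the 811 peaks with CTCF (0.863%). No word of the list was found in 538 members (18.3%). A word that was absent says only that its letters are not in the window. These shares are those of antibody 1 summits. At antibody 2 summits of members NRF1 was found in 1.49%, CRE in 1.66%, the E-box in 3.84%, C/EBP in 1.46% and ZNF143 in 0.306%. There the C/EBP interval (1.09 to 1.96%) lay above that of canonical starts (0.517 to 0.734%), and the NRF1 interval below. The 576 promoter peaks of antibody 2 alone held the C/EBP word in 10.2%.

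**Figure D2:**
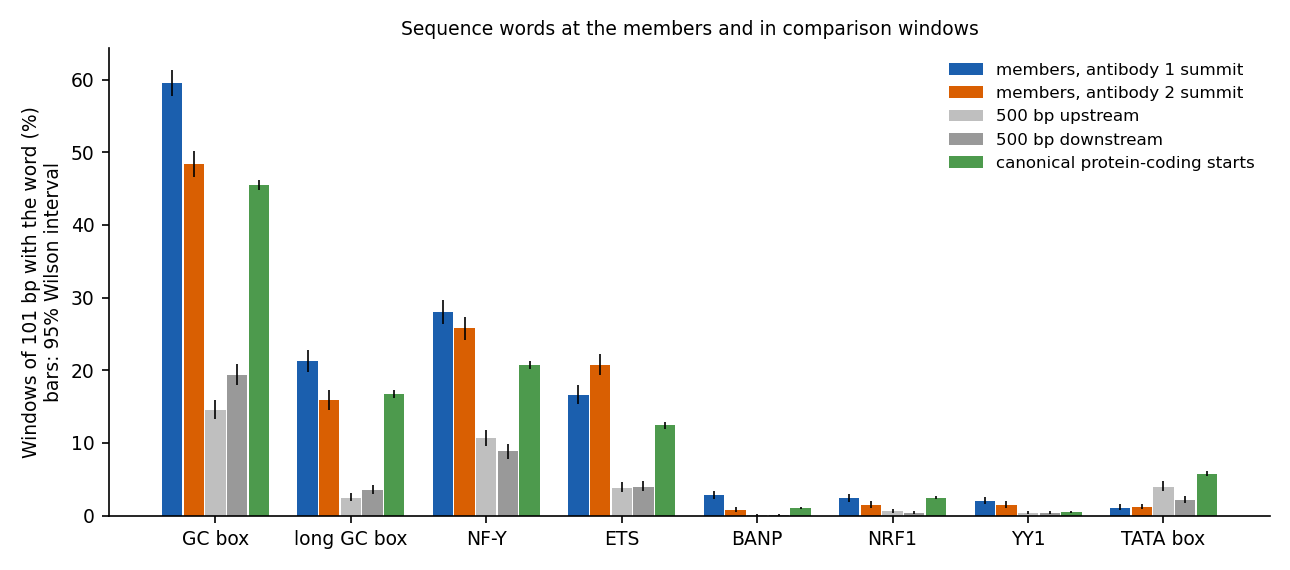
Share of windows of 50 bp to each side that hold each word (vertical, percent; bars with 95% Wilson intervals) at members by antibody 1 summit and by antibody 2 summit, in windows 500 bp to each side, and at all canonical protein-coding starts. The windows of canonical starts run from 100 bp upstream to the start. The GC box reached 59.5% at antibody 1 summits and 14.6% in windows 500 bp upstream, whereas the TATA box was lower in members (1.12%) than in canonical starts (5.77%).

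Position relative to the start differed between words. The 2893 GC boxes in member windows had a median position of −51.5 bp from the nearest start, and 81.2% (79.8 to 82.6%) lay upstream. Their orientation was close to even, with 53.3% (51.5 to 55.1%) reading GGGCGG on the coding strand. NF-Y words had a median position of −66 bp, ETS words of −26.5 bp and BANP words of −27.5 bp. The 63 YY1 words straddled the start, with a median of −10.5 bp, and 71.4% read AAGATGGC on the coding strand. The 34 TATA words, although few, had a median position of −26.5 bp and 73.5% read TATAAA on the coding strand.

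GC boxes were closer to the antibody 1 summit than most other words. In windows that held the word, the nearest box lay a median of 13.5 bp from the summit, compared with 22 bp for NF-Y and 21.5 bp for ETS words. The nearest BANP word lay a median of 9 bp away. Windows differed in matches, with 2893 GC boxes in 1753 members, 1049 NF-Y words in 824 and 601 ETS words in 489. The part of these numbers in the distances was not tested. Among 970 pairs of neighbouring boxes on the same strand, the most frequent spacing was 5 bp (98 pairs), at which neighbours share a base, followed by 11 bp (53 pairs) and 12 bp (49 pairs).

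The same words were placed around canonical starts of genes with and without a member. Of 3022 canonical protein-coding starts within 1 kb of a member summit, 57.3% (55.5 to 59.0%) had a GC box between 100 bp upstream and the start, against 38.6% (37.8 to 39.5%) of 12589 starts with no summit of either Sp1 antibody within 1 kb. NF-Y words were found in 30.9% and 17.8%, and ETS words in 24.2% (22.7 to 25.7%) and 7.18% (6.74 to 7.65%). The GC content of the windows had medians of 67.3% (quartiles 61.4 and 72.3%) and 64.4% (51.5 and 75.2%). Its part in the differences between words was not tested.

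**Figure D3:**
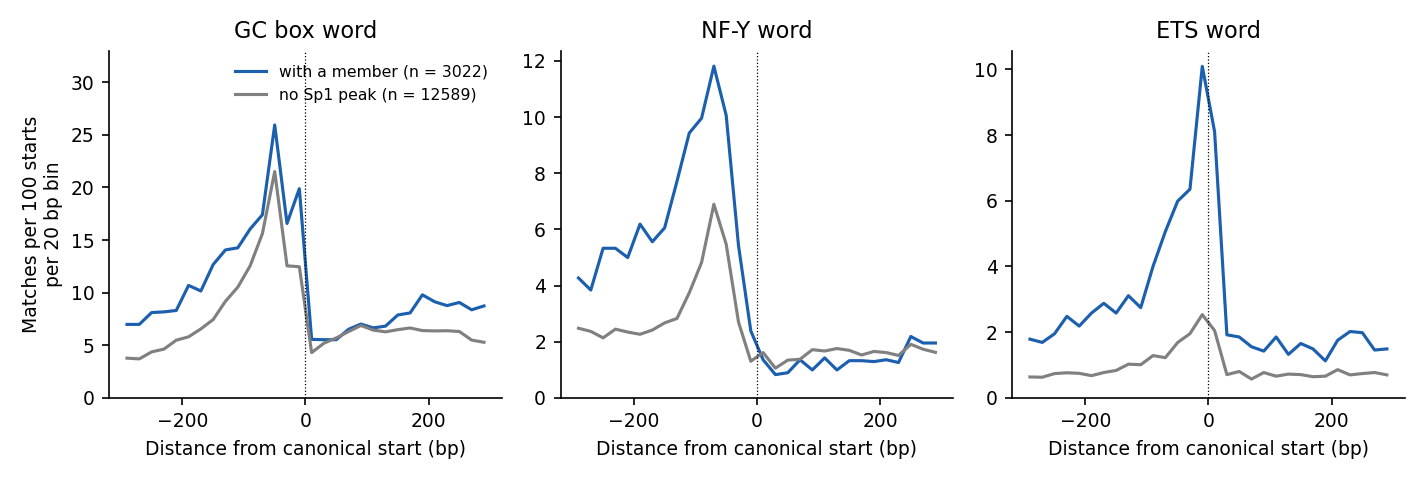
Matches per 100 canonical protein-coding starts in bins of 20 bp (vertical) by distance from the start (horizontal, bp, negative upstream) for the GC box, NF-Y and ETS words, in 3022 starts with a member (blue) and 12589 with no Sp1 peak (grey). Both groups peaked in the same bins, at −50 bp for the GC box (25.9 and 21.5), −70 bp for NF-Y (11.8 and 6.89) and −10 bp for ETS (10.1 and 2.53).

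Fold enrichment with antibody 1 was higher in members with more GC boxes in the window. The median was 8.98 in the 1191 members without a box, 10.7 with 1, 12.6 with 2, 14.8 with 3 and 16.1 in the 85 members with 4 or more. With antibody 2 the medians ran from 6.82 to 7.58 over the same classes, whose boxes were counted at antibody 1 summits. GC content was higher as well, from 62.4% without a box to 77.2% with 4 or more, and its part in the result was not tested. These medians are descriptions, since the rule chose members by their peaks.

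**Figure D4:**
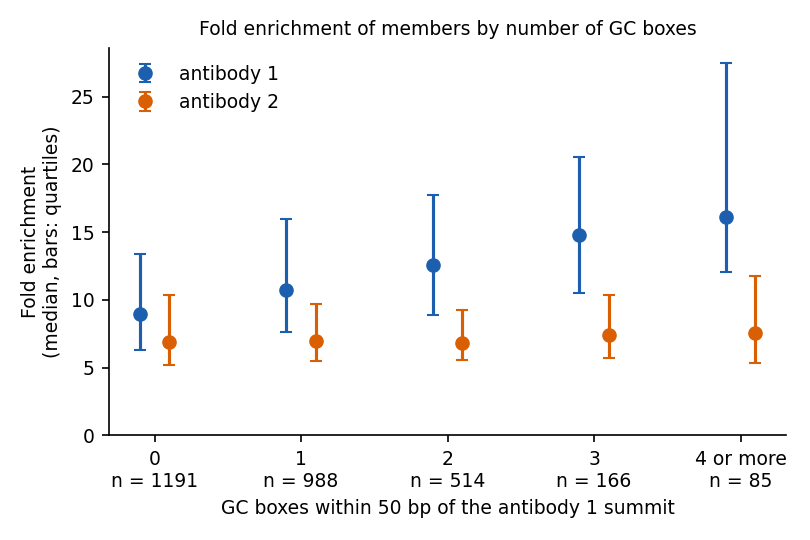
Fold enrichment (vertical; points are medians and bars the quartiles) of members by the number of GC boxes within 50 bp of the antibody 1 summit (horizontal, with the number of members), for antibody 1 (blue) and antibody 2 (orange). Antibody 1 medians went from 8.98 without a box to 16.1 with 4 or more, while antibody 2 medians stayed between 6.82 and 7.58.

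When members were ranked by fold enrichment, the GC box share at antibody 1 summits was ordered by antibody 1 but not by antibody 2. From the weakest to the strongest 25% by antibody 1 it was 41.8%, 57.1%, 66.6% and 72.7%. By antibody 2 it was 55.3%, 62.6%, 64.3% and 56.0%. The ETS word showed another order, with 13.7%, 13.2%, 13.7% and 25.8% by antibody 2, and 21.9%, 21.7%, 11.96% and 10.9% by antibody 1. Both words were counted at antibody 1 summits in both rankings, so the antibody 2 ranking was not scored at its own summits. CAPN12, with 10 GC boxes, had 35.9 and 18.9, CPNE7 had 106 and 32.8, TRAPPC8 had 29.8 and 18.01 and RAD54L had 50.8 and 21.2, so that all 4 were above both medians.

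The members that differed more than 4-fold between the antibodies carried different words. Among the 94 higher with antibody 1, the BANP word was found in 40.4% (31.1 to 50.5%), compared with 0.990% (0.272 to 3.54%) of the 202 higher with antibody 2 and 1.59% (1.18 to 2.14%) of the 2648 within 4-fold. The ETS word was found in 9.57% (5.12 to 17.2%), 49.5% (42.7 to 56.3%) and 14.4% (13.1 to 15.7%) of the same groups. This contrast was known from earlier results on the strongest peaks of both lists and is no independent support here. The GC box occurred in 53.2% (43.2 to 62.95%), 30.2% (24.3 to 36.9%) and 62.01% (60.1 to 63.8%), and NF-Y in 11.7%, 5.94% and 30.2%, so both shares were highest in the members within 4-fold at antibody 1 summits. At antibody 2 summits the GC box order differed, with 53.2% of the 94, 23.8% of the 202 and 50.1% of the rest. The NRF1 word was also uneven at antibody 1 summits, in 12 of the 94 (12.8%, 7.46 to 20.9999%). Its share was 0.495% of the 202 and 2.19% of the rest. At antibody 2 summits its shares were 7.45%, 0.990% and 1.32%. The 71 members with the NRF1 word had median fold enrichments of 14.9 with antibody 1 and 5.94 with antibody 2.

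The ETS and BANP words were also sought at antibody 2 summits. There the ETS word was found in 14.9% (9.08 to 23.5%) of the 94, 59.9% (53.0 to 66.4%) of the 202 and 17.9% (16.5 to 19.4%) of the rest. The BANP share there was 8.51% (4.38 to 15.9%) of the 94, 0.495% of the 202 and 0.529% of the rest, so it was lower in the 94 than at antibody 1 summits. Longer forms of the words were counted at antibody 1 summits. The ETS form CCGGAAGT occurred in 3.19% of the 94, 16.8% (12.3 to 22.6%) of the 202 and 4.12% of the rest, and the BANP palindrome TCTCGCGAGA in 15.96% (9.92 to 24.7%), 0.495% and 0.340%. In all canonical starts these forms were found in 3.89% and 0.401%.

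The 82 members with the BANP word had median fold enrichments of 23.3 with antibody 1 and 6.404 with antibody 2, and 38 of them were in the antibody 1 group. In the 25 with the palindrome the medians were 32.3 and 6.39, and in the 57 with the short word alone 20.8 and 6.54. The 489 members with the ETS word had medians of 8.84 and 7.96, and 100 were in the antibody 2 group. BANP words therefore went with high antibody 1 values, while ETS words went with a wide spread of antibody 2 values whose upper quartile was 21.6.

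The unequal members also differed in shape. Peak width was a median of 955 bp with antibody 1 and 505 bp with antibody 2 in the 94, and 486.5 and 846 bp in the 202. Fold enrichment defined these groups, and its part in the widths was not tested, so the widths are a description only. Their summits lay a median of 79 and 27 bp apart. Protein-coding starts of different genes on both strands lay within 1 kb of the summit in 24.5% of the 94 and 28.2% of the 202, compared with 19.2% of the remainder.

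Over all members, such starts on both strands were found for 589 (20.0%, 18.6 to 21.5%). The share was 15.9% (13.6 to 18.6%) in the shared promoter peaks with CTCF, 11.4% (10.3 to 12.6%) in peaks of antibody 1 alone, and 13.9% (13.4 to 14.4%) of canonical protein-coding starts had an opposite start within 1 kb. A summit that lies between starts can reach both from a shorter distance than a start can reach the other, so the last share is not measured in the same way. The strongest of the 589 were at IQCH and AAGAB, described above, at INTS12 and GSTCD (chr4:105708386-105709006, 18.7 and 218), and at DCAF10 and EXOSC3 (chr9:37800496-37800939, 17.1 and 196). INTS12 is a subunit of the Integrator complex, and EXOSC3 of the RNA exosome. Both of these were higher with antibody 2, unlike IQCH, and both overlapped a CTCF peak of replicate 1 alone (4.63 and 7.37).

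The absence of CTCF from members was set by the rule, but not all were free of CTCF calls. A replicate 1 peak overlapped 326 members (11.1%), with a median CTCF fold enrichment of 4.81 and a maximum of 18.2. A replicate 2 peak overlapped 43, with a median of 3.29 and a maximum of 68.1. The rule used the replicate 1 intervals of shared CTCF peaks, so a replicate 2 interval of such a peak could still overlap a member. In the CTCF peaks found in both replicates the replicate 1 median was 41.6. No CTCF peak of either replicate overlapped 2578 members (87.6%). The nearest CTCF summit found in both replicates lay a median of 16405 bp away, with a minimum of 204 bp. An IgG peak overlapped 2 members, at PPP1R15B (5.59 and 8.21), a regulator of the phosphatase that acts on eIF2α, and at PLXDC1 (8.29 and 5.16).

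Members lay at 3352 of 19970 protein-coding genes, or 16.8%, counting a gene when a member summit lay within 1 kb of any of its starts. Of these, 87 had 2 or more members. Chromosome 19 had the highest share of genes with a member, 24.5%, and chromosome X the lowest, 7.45%. Gene lists were read against the 16.8% of all genes. They were chosen with results of these data known, their genes are not independent, and no test was made of them. Other peak groups had high shares in some lists too. Shared promoter peaks with CTCF lay at 17 of 79 cytosolic ribosomal protein and 8 of 38 SR and hnRNP genes, against 4.40% of all. They lay at none of the TRiC, RNA exosome or ubiquitin E2 genes. Peaks of antibody 1 alone lay at 14 of 44 replication, 13 of 48 proteasome and 5 of 38 SR and hnRNP genes, against 14.5%. A high share in a list was thus not always particular to members.

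Genes of protein synthesis often had a member. It was found at 34 of 79 cytosolic ribosomal protein genes (43.04%, 32.7 to 54.03%) and at 33 of 78 mitochondrial ribosomal protein genes (42.3%, 31.96 to 53.4%). RPS7 had fold enrichments of 13.3 and 129, and RPL4, whose member lay nearest the start of ZWILCH, 38.6 and 20.1. Of the mitochondrial genes, MRPS18C had 26.3 and 91.8, MRPL44 12.1 and 155, and MRPL30 11.6 and 126. Among the 33 members at mitochondrial ribosomal protein genes, 9 were more than 4-fold higher with antibody 2 (27.3%), compared with 250 of the 3352 genes with a member (7.46%).

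Further genes of translation and folding gave similar shares. Translation initiation factors and related genes had a member in 19 of 55 (34.5%), led by EIF1AD with 14.2 and 123.4, EIF5A2 with 29.4 and 11.2 and EIF2AK3, a kinase that represses initiation, with 13.6 and 14.99. Of 37 tRNA synthetase genes, which charge tRNAs with amino acids, 14 had a member, the strongest at TARS2 (7.85 and 140), YARS1 (22.2 and 10.3) and WARS1 (11.3 and 18.8). The chaperonin TRiC, which folds actin and tubulin, had a member at 5 of its 8 genes, with CCT7 at 11.9 and 16.4, CCT8 at 20.8 and 4.73 and TCP1 at 7.098 and 7.75. The interval for TRiC was wide, from 30.6 to 86.3%.

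Mitochondrial genes other than those of the ribosome were also represented. Members lay at 25 of 78 genes of oxidative phosphorylation (32.1%, 22.7 to 43.0%), including the complex I genes NDUFS3 (15.4 and 169), NDUFC2 (11.7 and 160) and NDUFB3 (15.9 and 102). These 3 were all higher with antibody 2, as were 11 of the 25, compared with 824 of all 3352 genes with a member (24.6%). Protein import into mitochondria had 10 of 25 genes, with TIMM9 at 12.9 and 112, TOMM40 at 36.1 and 18.7 and TIMM17B at 14.9 and 8.01.

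Genes of RNA processing and transcription followed. SR and hnRNP proteins, which act in splicing, had a member at 16 of 38 genes (42.1%, 27.9 to 57.8%), and 1 of the 16 was higher with antibody 2, against 24.6% of all genes with a member. The strongest were SRSF9 (30.4 and 15.7), SRSF2 (18.9 and 16.04) and HNRNPH1 (29.6 and 6.54). The RNA exosome, which degrades and trims RNA, had 4 of 12 genes, with EXOSC3 at 17.1 and 196, DIS3 at 7.65 and 10.01 and EXOSC5 at 11.4 and 6.39. General transcription factors had 18 of 45 genes, led by subunits of TFIIIC and TFIIH, namely GTF3C5 (17.5 and 105), GTF2H4 (16.8 and 82.7) and GTF3C3 (7.08 and 142). Nucleoporins, which form the nuclear pore, had 12 of 30, with NUP107 at 7.02 and 71.9, NUP54 at 8.23 and 48.8 and NUP93 at 29.1 and 11.5.

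DNA replication and repair genes had a member in 16 of 44 (36.4%, 23.8 to 51.1%) and 21 of 54 (38.9%, 27.04 to 52.2%). The clamp loader gene RFC5 had 80.3 and 6.01, the ligase gene LIG1 18.8 and 8.35 and POLD4 16.1 and 8.02. In repair, RAD54L had 50.8 and 21.2, the mismatch repair gene MSH6 26.2 and 6.31 and ERCC1 18.7 and 6.88. Of the repair genes with a member 1 of 21 was higher with antibody 2, and of the replication genes 3 of 16, compared with 824 of 3352 genes (24.6%).

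Protein turnover and traffic showed both patterns. Of 86 genes of vesicle coats and sorting, 35 had a member (40.7%, 30.9 to 51.3%), with VPS51 at 20.3 and 219, clathrin heavy chain CLTC at 56.02 and 23.96 and AP3S2 at 6.77 and 137. Of 31 autophagy genes 13 had one, including BECN1, which shares its member with PSME3 (8.34 and 24.1), WIPI1 (17.6 and 10.7) and ATG7 (9.74 and 13.4). The proteasome had 12 of 48 genes (25.0%, 14.9 to 38.8%), with PSMF1 at 11.6 and 85.4 and PSMC3 at 21.1 and 12.8. Ubiquitin E2 enzymes had 10 of 34 (29.4%, 16.8 to 46.2%), and UBE2B (52.4 and 11.98), UBE2F (18.6 and 16.9) and UBE2D3 (43.5 and 6.74) were the strongest. None of these 10 was higher with antibody 2, compared with 24.6% of all genes with a member.

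Of the metabolic lists, nucleotide synthesis was near the share of all genes and cholesterol synthesis above it. Nucleotide synthesis had 6 of 35 genes (17.1%, 8.10 to 32.7%), with MTHFD1 at 25.2 and 5.01, DHODH at 15.7 and 8.01 and RRM1 at 8.51 and 6.72. Cholesterol synthesis and uptake had 9 of 25 (36.0%, 20.2 to 55.5%), with DHCR7, the last enzyme of the pathway, at 15.99 and 9.73 and MSMO1, a sterol oxidase, at 13.3 and 8.41.

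Zinc finger genes with a ZNF symbol had a member in 127 of 508 (25.0%, 21.4 to 28.9%). The strongest were ZNF784 (60.8 and 36.2), ZNF143 (61.4 and 29.6) and ZNF165 (13.01 and 128). The Sp and KLF family itself had 5 of 27 (18.5%, 8.18 to 36.7%). SP2 had 24.9 and 16.1, SP1 19.6 and 12.3 and SP4 14.6 and 6.28.

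Of 20 genes treated as classic Sp1 targets, 6 had a member (30.0%, 14.5 to 51.9%), 3 had a shared promoter peak with CTCF and 9 a peak of antibody 1 alone. Of all protein-coding genes 16.8%, 4.40% and 14.5% had such peaks, and the interval for members holds 16.8%. Besides SP1, members lay at NFYA, a subunit of NF-Y (29.4 and 6.37), PCNA, the sliding clamp of replication (15.2 and 7.23), and SOD1, a superoxide dismutase (17.5 and 5.82), and all 6 were higher with antibody 1, as were 76.4% of all members. The windows at NFYA and PCNA held no GC box.

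Gene families expressed in few cell types served as a contrast. No member was found at 415 olfactory receptor genes, which by the limit of 3 counts, used here in place of the Wilson bound, allows a share of up to 0.723%, at 51 clustered protocadherin genes (up to 5.88%) or at 62 interferon and chemokine genes (up to 4.84%). Keratins had 1 of 55, at KRT8 (6.04 and 5.33), collagens 1 of 44, at COL5A3 (10.7 and 5.60), and HOX genes 2 of 39, with HOXC13 at 8.89 and 4.55. Over the 28 lists, the interval of the share lay wholly above 16.8% in 17, held it in 6 and lay wholly below it in 5. Within the lists, GC boxes were found in 14 of 34 members at cytosolic ribosomal protein genes, 22 of 35 at vesicle genes and 13 of 16 at replication genes, beside 59.5% of all members. These 3 lists were chosen after their values were seen, and the differences were not tested.

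**Figure D5:**
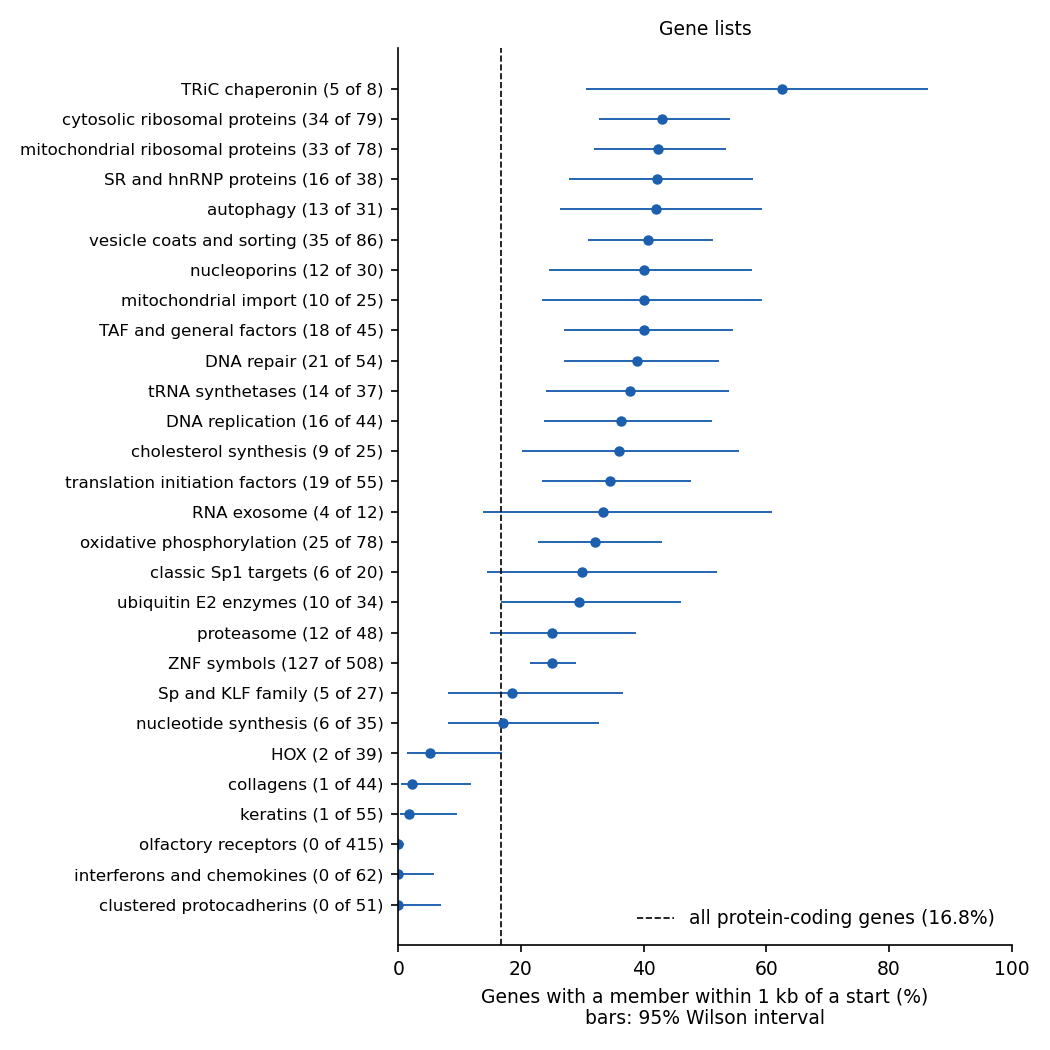
Share of genes with a member within 1 kb of a start (horizontal, percent; points with 95% Wilson intervals) for 28 gene lists, with the number of genes beside each name, and for all protein-coding genes (dashed line, 16.8%). Ribosomal protein genes reached 43.04% and 42.3%, whereas olfactory receptors, protocadherins and interferons and chemokines had no member.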

How the data were processed

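The 5 deposited peak lists from ChIP-seq in U-2 OS cells were used, 1 per library and none pooled. Per the submitters' processing notes, Cutadapt 2.6, Bowtie2 2.4.5, SAMtools 1.15.1 and MACS2 2.2.7.1 were used, with the genome build hg38. The authors' peak caller made each value. Column 7 holds fold enrichment over the control (a linear ratio made by the authors), columns 8 and 9 hold the deposited −log10 p and −log10 q at the summit, and the deposited score in column 5 was not used. The lowest −log10 q was 1.30 for antibody 1 and 1.32 for antibody 2. Sequencing depth is not part of the lists and was not used here.

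Intervals were joined by overlap of at least 1 bp in Python 3.11.15 (pandas 2.3.3, numpy 2.4.6, scipy 1.17.1). All lay within the contigs of hg38. Each member was matched to the antibody 2 peak of largest overlap. Starts came from GENCODE release 44, and sequence from hg38 through pysam 0.24.0. Both strands were searched for each word, up to 50 bp from a summit. Functions were tested on simulated data. Figures used matplotlib 3.10.9.

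The members, gene lists and words were chosen with earlier results of these data known. Named members were the 8 of highest mean log2 fold enrichment without IgG overlap, the 4 highest and 4 lowest ratios, the 4 with most GC boxes, 3 on each side of the 1 kb limit, the 3 strongest per gene list, 3 with starts on both strands, those overlapping IgG and the classic targets. Some genes and sequences that this rule names are not reported here. The choice of printed sites per word, the long words and the start profiles were added after values were seen. No p-value was computed, since peaks are not replicates and each Sp1 antibody has 1 library. Alternatives changed the q-value limit, the overlap, the start distance and class, the CTCF exclusion, IgG overlap, and the word, window and summit.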

Additional observations from a re-analysis of the deposited data

How the results depend on the processing

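The number of members stayed within 1.5 times 2944 under all 10 alternatives, from 2018 with summits within 100 bp to 3076 with starts within 5 kb. Leaving out each CTCF replicate in turn gave 2618 to 2956 members, 69.7% to 78.7% of shared promoter peaks without CTCF, and 15.0% to 16.9% of protein-coding genes with a member. The lower values of these ranges came without replicate 2, when any replicate 1 peak excluded a member. Over the same pair, the median log2 ratio was −0.67 to −0.66, rho 0.328 to 0.337, the GC box share 58.98% to 59.5% and the share with starts on both strands 20.1% to 20.3%. Excluding peaks of either CTCF replicate gave 68.7% without CTCF and 14.8% of genes.

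The share of genes was 16.2% with a −log10 q of at least 3, 14.2% with a reciprocal overlap of 50%, 11.5% with summits within 100 bp, 16.1% with starts within 500 bp and 18.4% within 5 kb. Reciprocal overlap gave a rho of 0.420. Summits within 100 bp gave a median log2 ratio of −0.69 and a GC box share of 61.4%. That share was 74.3% within 100 bp of the summit, 21.3% for GGGGCGGGG and 48.4% at antibody 2 summits. The share with starts on both strands was 21.7% when only protein-coding starts defined promoters. It was 17.5% when both starts had to lie within 500 bp of the summit. Other alternatives left these values within their intervals.

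No paired analysis was possible because no test compares groups, and only the CTCF and input libraries carry shared replicate numbers. The lists give no depth, so the lack of a peak in any list, CTCF included, means only that none was called. Antibody and library cannot be told apart for Sp1, and the causes of the differences between settings were not tested.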
